A study of Mus musculus with 12 samples.

Results

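The 9 genes of microtubule-associated proteins (MAPs) Map1a, Map1b, Map1s, Map2, Map4, Map6, Mapt, Dst and Macf1 were followed in ribosome pull-downs and inputs from cultured dorsal root ganglion (DRG) neurons of the mouse. They were taken by gene symbol out of 14177 genes listed in the deposited count tables, and all 9 were found in both tables and passed the filter on low values. The mice were RiboTag animals, in which Cre recombinase makes the ribosomal protein Rpl22 carry a hemagglutinin (HA) tag, so that ribosomes of the Cre-expressing cells can be pulled down with their RNA. All 4 groups came from adult males of 3 to 6 months that were homozygous for the RiboTag allele (Rpl22HA/HA), and they differed in the Runx3-Cre allele, present in Cre+ mice and absent in their Cre- littermates. Runx3 is a transcription factor of proprioceptive neurons, so the driver limits the tag to the cells in which it is active. Neurons of all ganglia were purified on Percoll and kept for 24 h in culture, and 5 mice were pooled for each sample. RNA from HA pull-downs and from 10% of the lysate before the pull-down (input) was sequenced, with 3 libraries in each of the 4 groups. In the study's design the Cre- pull-downs measure background.

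MAPs bind along the microtubule lattice and set how stable, how bundled and how accessible the polymer is. In axons, which depend on microtubules for their shape and for transport over long distances, they are among the most abundant cytoskeletal proteins. Map1a, Map1b and Map1s form the MAP1 family, whose precursors are cleaved into a heavy and a light chain. Map2, Map4 and Mapt, which encodes tau, share a set of short repeats through which they bind tubulin. Map6, also known as stable tubule-only polypeptide, protects microtubules from cold. Dst (dystonin) and Macf1 are spectraplakins, giant proteins that link microtubules to actin and to intermediate filaments, and loss of Dst causes a sensory neuropathy in mice.

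The tau-type repeats end in the residues Pro-Gly-Gly-Gly, and this feature was looked for in the coding sequence of the members because these repeats define the tau family. The search used the 12 letters CCNGGNGGNGGN in frame on the coding strand, where N is any base. Mapt held 4 matches, Map4 held 3, Map2 held 2, Map1s and Dst held 1 each, and Map1a, Map1b, Map6 and Macf1 held 0. Of 8870 genes with a coding sequence, 3.3% held at least 1 match and 0.0789% (7 genes) held at least 3. A match describes the letters and not a binding site. The second match in Map2 and in Map4 is printed with the 18 bases before it, with the 12 matched bases in capitals, as read from the GENCODE M21 coding exons on GRCm38. These stretches lie at chr1:66438328-66438357 (Map2) and chr9:110072673-110072702 (Map4), both on the plus strand.
Map2: gacaatgctcaccacgtaCCTGGAGGTGGT
Map4: gacaatattaagcatgtcCCTGGAGGTGGC

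Several properties of the libraries bear on every value below. Depth was 8886308 to 18633365 counts per library, and ribosomal precursor RNA (Rn45s) took 2.8% to 8.53% of them. Runx3, which drives Cre, had 22.7, 2.07 and 11.1 normalized counts (per 1000000 counts, scaled within a label) in the 3 pull-downs labelled Cre+ and 20.7, 35.9 and 51.2 in those labelled Cre-, against 1.89 to 5.55 in the 6 inputs. Its log2 fold change of pull-down against input was 1.55 (SE 0.87, FDR = 0.309) in the libraries labelled Cre+ and 3.52 (SE 0.43, FDR = 0.000236) in those labelled Cre-, and the difference between the labels was -1.94 (SE 0.996, FDR = 0.302), which did not pass the test. The call of the driver was thus not in the libraries whose label carries it, and groups are named here by label only. The column names of the Cre+ table also resemble titles of Cre- samples, and its group comes from the sample descriptions, which name that table. Whether labels were exchanged was not tested, and an exchange would turn the sign of every difference between Cre+ and Cre- given here. The study reports a significant overlap with Runx3-Cre tissue for its Cre+ cultures and poorer consistency for Cre- cultures, which was not re-examined here. Of proprioceptor genes, 7 of 8 tested passed the test as higher in the pull-downs labelled Cre- (median log2 fold change 2.68, where 6.01% of all genes were called higher) and 1 of 7 in those labelled Cre+ (median 1.30, 4.72% of all genes), with 6 of these 7 above 0. In the difference between the labels 2 of 7 were called, both smaller in Cre+, where 2% of all genes were. Without Cre+ pull-down 1 there were 4 of 7, where 601 genes in all were called smaller, and the median for Cre+ was 0.69. Cre+ pull-down 1 stood apart, with a Pearson r of 0.743 and 0.706 to the other Cre+ pull-downs, which had 0.847 to each other, whereas r was 0.943 to 0.972 among Cre- pull-downs and 0.919 to 0.978 among inputs of 1 group. Markers of DRG neurons were present in all groups, and their 8 genes summed to 9220 to 11300 normalized counts in Cre+ inputs, 9180 to 10000 in Cre+ pull-downs, 10200 to 11400 in Cre- inputs and 15700 to 19700 in Cre- pull-downs. Most of these sums was Nefl, a neurofilament gene, with means of 8558 in Cre- inputs and 15910 in Cre- pull-downs. The list had a median log2 fold change of 0.03 for Cre-, with 0 of 8 called by edgeR (3 higher and 1 lower at an unadjusted p under 0.05) and 0 by DESeq2, and -0.08 for Cre+, with Tubb3 (-1.19) and Uchl1 (-1.85) called lower.

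Sums of the markers of other cells differed between fractions in some groups. The markers of other sensory neurons, with 6 genes of 6 listed in the Cre- table and 5 of 6 in the Cre+ table, summed to 2070 to 2220 in Cre- inputs and 412 to 1130 in Cre- pull-downs, and to 2120 to 2450 in Cre+ inputs and 1450 to 2270 in Cre+ pull-downs. Satellite glia and Schwann cell markers, with 8 of 9 and 5 of 9 genes listed, summed to 371 to 444 and 511 to 589 in Cre- inputs and pull-downs, and to 304 to 562 and 171 to 329 in Cre+ inputs and pull-downs. The glial sums were mostly S100b, with means of 318.7 and 514.6 in Cre- inputs and pull-downs. By fold change, the glial genes tested had a median log2 of -1.31 (7 genes) for Cre- and -0.51 (5 genes) for Cre+. Fibroblast markers summed to at most 95.5 in any library, macrophage markers to at most 117 and endothelial markers to at most 87.7 in inputs and 381 in pull-downs, and no listed marker was at 0 in all libraries of a group. The part of these shifts in the values of the members was not tested. Between the labels, fewer cells of a type and less RNA per cell cannot be told apart in such bulk samples.

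In the MAP1 family, Map1b and Map1a were higher in the pull-downs than in the inputs under both genotype labels, whereas Map1s was not. Map1b (chr13:99421464-99516602, minus strand), a MAP of growing axons, had 12510, 19570 and 20340 normalized counts in the Cre+ inputs and 84310, 144400 and 121300 in the Cre+ pull-downs. In the libraries labelled Cre- it had 16590, 21140 and 20770 in the inputs and 39100, 86680 and 60590 in the pull-downs. Every pull-down lay above every input, and the lowest value among the pull-downs of each label was that of pull-down 1. The log2 fold change was 2.74 (SE 0.27, FDR = 0.00991, n = 3 against 3) in the libraries labelled Cre+ and 1.67 (SE 0.25, FDR = 0.00209) in those labelled Cre-.

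Map1a (chr2:121289590-121310832, plus strand), the MAP1 protein that prevails in mature neurons, had 1817, 1949 and 2049 normalized counts in the Cre+ inputs and 6885, 8311 and 6865 in the Cre+ pull-downs. The Cre- inputs had 1988, 2261 and 2246 and the Cre- pull-downs 4951, 6705 and 5128. Groups were well apart in both cases, and inputs of both labels were nearly level. The log2 fold change was 1.92 (SE 0.21, FDR = 0.0119) for Cre+ and 1.37 (SE 0.15, FDR = 0.000124) for Cre-. In the annotation, 2.24% of the exon bases of Map1a overlap the antisense gene Ppip5k1, and counting is not stated to have used strand. Map1s (chr8:70905974-70917529, plus strand), a more widely expressed relative, was a low gene with 19.1, 23.5 and 22.9 normalized counts in the Cre+ inputs and 47.9, 12.3 and 6 in the Cre+ pull-downs. Cre+ pull-down 1 was above all inputs and the other Cre+ pull-downs were below them. The Cre- inputs had 23.4, 42.1 and 17.1 and the Cre- pull-downs 27.3, 18.8 and 33, which overlapped. Its log2 fold change was 0.02 (SE 0.77, FDR = 0.992) for Cre+, which became -1.21 (FDR = 0.179) without Cre+ pull-down 1, and -0.06 (SE 0.34, FDR = 0.924) for Cre-.

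In the tau family, Map2 was higher in the pull-downs labelled Cre-, and neither Map4 nor Mapt passed the test under either label. Map2 (chr1:66175202-66442583, plus strand), best known from dendrites, had 45, 59.8 and 75.2 normalized counts in the Cre- inputs and 163.5, 159.2 and 213.3 in the Cre- pull-downs. All Cre- pull-downs lay above all inputs, with a log2 fold change of 1.57 (SE 0.21, FDR = 0.000465). In the libraries labelled Cre+ the inputs had 38.3, 63.4 and 78 and the pull-downs 237.7, 72 and 83.1. Here only Cre+ pull-down 1 was clear of the inputs, and the other Cre+ pull-downs lay close to the highest input, 1 above and 1 below it. The log2 fold change was 1.13 (SE 0.52, FDR = 0.226), and 0.41 (SE 0.37, FDR = 0.485) without Cre+ pull-down 1.

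Map4 (chr9:109929841-110083954, plus strand), the member of the tau family that is common outside neurons, had 1346, 1531 and 1431 normalized counts in the Cre+ inputs and 1033, 1043 and 1600 in the Cre+ pull-downs. The Cre- inputs had 1596, 1541 and 1510 and the Cre- pull-downs 2021, 1260 and 1356. In both sets 1 pull-down lay above the inputs and the other two below them. Log2 fold changes were -0.23 (SE 0.25, FDR = 0.599) and -0.00 (SE 0.18, FDR = 0.993). Mapt (chr11:104229409-104332090, plus strand), which encodes the axonal protein tau, had 121.9, 155.8 and 154.9 in the Cre+ inputs and 81.5, 166.7 and 193.7 in the Cre+ pull-downs. It had 131.1, 134 and 141.4 in the Cre- inputs and 173.7, 136.2 and 130.2 in the Cre- pull-downs. The groups overlapped, and the log2 fold changes were 0.03 (SE 0.37, FDR = 0.968) and 0.12 (SE 0.17, FDR = 0.69).

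Map6 (chr7:99266779-99337137, plus strand) varied little between the fractions. The Cre+ inputs had 194.5, 333.2 and 282.7 normalized counts and the Cre+ pull-downs 359.1, 307 and 384, whereas the Cre- inputs had 324, 307.3 and 296.2 and the Cre- pull-downs 305, 291.9 and 347.7. Both sets overlapped. Log2 fold changes were 0.37 (SE 0.28, FDR = 0.438) and 0.03 (SE 0.14, FDR = 0.926).

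Both spectraplakins were higher in the pull-downs under both labels. Dst (chr1:33907888-34308662, plus strand) had 929.2, 1999 and 2212 normalized counts in the Cre+ inputs and 9742, 6290 and 9450 in the Cre+ pull-downs. The Cre- inputs had 1297, 2089 and 2209 and the Cre- pull-downs 4226, 4677 and 4497. Input 1 was the lowest input under either label, and the pull-downs did not overlap the inputs. The log2 fold change was 2.31 (SE 0.35, FDR = 0.026) for Cre+ and 1.26 (SE 0.19, FDR = 0.000802) for Cre-. Antisense genes overlap 3.63% of the annotated exon bases of Dst. Macf1 (chr4:123349633-123687802, minus strand) was a much lower gene with the same pattern, with 72.5, 133.2 and 134.9 in the Cre+ inputs and 1187, 346.8 and 950.2 in the Cre+ pull-downs. The Cre- inputs had 101.3, 129.7 and 140.3 and the Cre- pull-downs 332.4, 292.4 and 419.2. Macf1 had the highest log2 fold change of the 9 members for Cre+, 2.87 (SE 0.47, FDR = 0.0307), with a wide spread among the Cre+ pull-downs, and 1.49 (SE 0.19, FDR = 0.000276) for Cre-. Without Cre+ pull-down 1, Macf1 had 2.55 for Cre+, below Map1b with 2.97. Counts were made per gene, so isoforms of these long genes were not told apart.

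**Figure D1:**
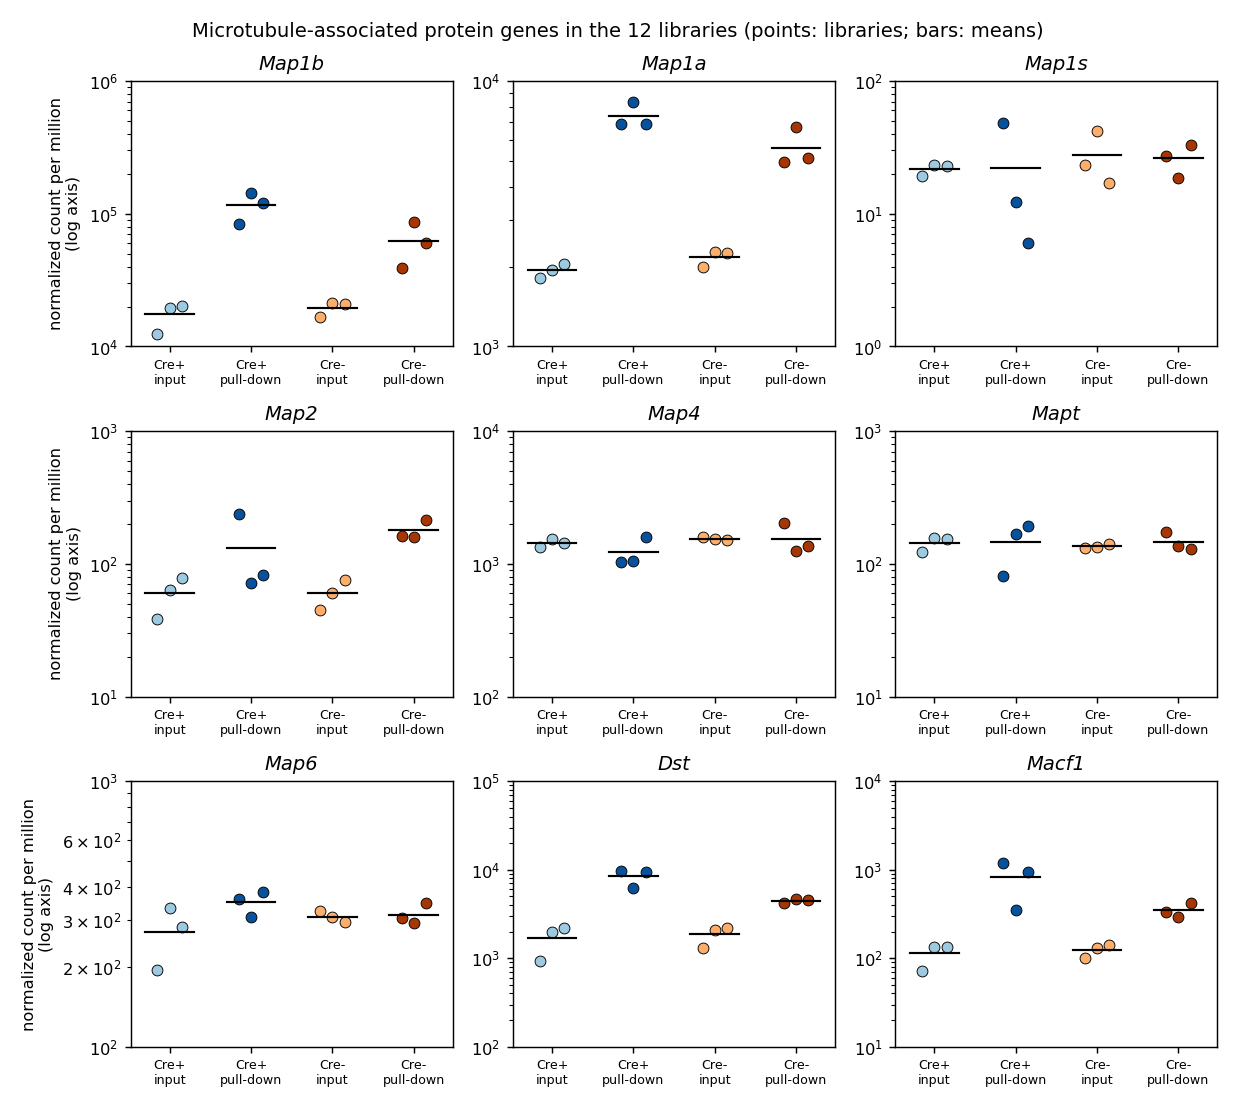
Normalized counts (per 1000000) of the 9 members in the 12 libraries, on log axes that differ between panels, with 1 point per library and a bar at the mean of the 3 libraries. Scaling factors were computed within each genotype label. Map1b, Map1a, Dst and Macf1 had all pull-downs above all inputs under both labels, and for Map2 and Map1s the first Cre+ pull-down lay above the other 2.

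Genes were called at a false discovery rate (FDR) below 0.1 and a 2-fold change, over all genes tested. In the libraries labelled Cre+, 4 of 9 members were called higher in the pull-down (Map1a, Map1b, Dst and Macf1), where 4.72% of 8947 genes were, and 0 of 9 were called lower (2.19% of all genes) by edgeR, with 0 lower at an unadjusted p under 0.05 and 0 by DESeq2. In the libraries labelled Cre-, 5 of 9 were called higher (the same 4 and Map2), against 6.01% of 11526 genes, and 0 of 9 lower (5.83% of all genes), again with 0 lower at an unadjusted p under 0.05 and 0 by DESeq2. The members had a median log2 fold change of 1.13 for Cre+ and 1.26 for Cre-, where the medians over all genes were 0.08 and -0.04. The Cre+ median is the value of Map2 and was 0.41 without Cre+ pull-down 1. All called members had every pull-down above every input, as did 15.5% of all genes for Cre+ and 18.2% for Cre-, and 0 members had every pull-down below every input, where 17.9% and 18.6% of genes did. Without Cre+ pull-down 1 the same number of members, 4, were called, where 803 genes in all were called higher. Log2 fold changes were 2.97 for Map1b, 2.01 for Map1a, 2.24 for Dst and 2.55 for Macf1. The Cre+ calls depended more on the inputs. Without Cre+ input 1, Macf1 had an FDR of 0.155 at a log2 fold change of 2.63, where 7 genes in all were called higher. Without Cre+ input 3 the FDR of Map1a was 0.102 and those of Dst and Macf1 were 0.112, which left 1 member called, Map1b. Fold changes without Cre+ input 3 were no smaller, at 1.97 for Map1a, 2.54 for Dst and 3.01 for Macf1, while calls over all genes went from 422 higher to 4.

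**Figure D2:**
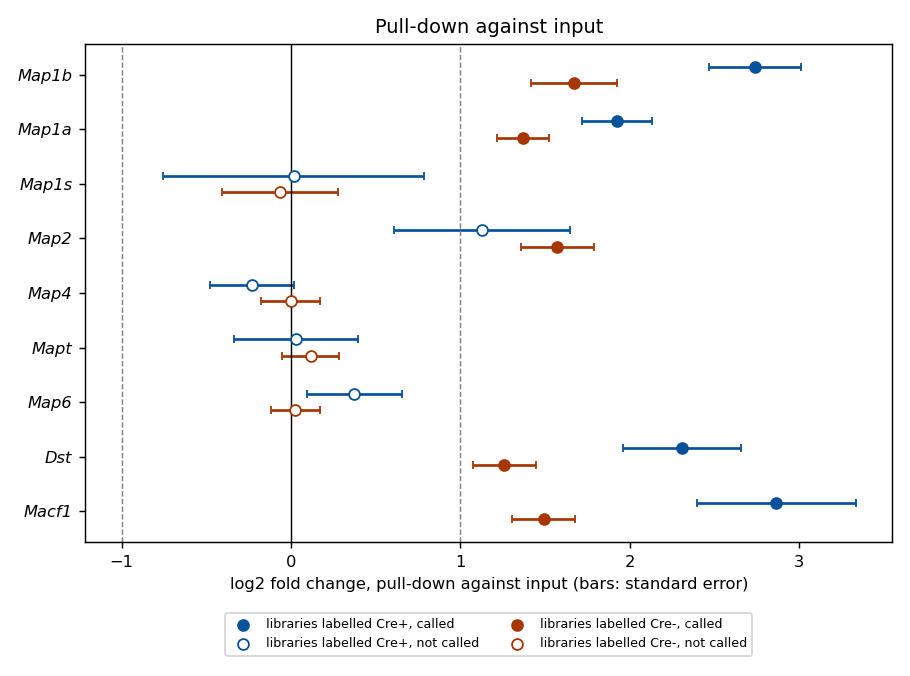
Log2 fold change of pull-down against input for each member in the libraries labelled Cre+ (blue) and Cre- (brown), with bars of 1 standard error from the fit of 3 against 3 libraries. Filled points passed FDR below 0.1 and 2-fold, and dashed lines mark the 2-fold limit. Map1b, Map1a, Dst and Macf1 lie beyond the limit under both labels, and Map1s, Map4, Mapt and Map6 near 0.

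The difference between the enrichments under both labels was tested in 1 fit of all 12 libraries, with its sign as the labels give it, which the values of Runx3 and the proprioceptor genes leave in doubt. It was 1.10 on the log2 scale (SE 0.39, FDR = 0.151) for Map1b, 1.40 (SE 0.51, FDR = 0.169) for Macf1, 1.08 (SE 0.41, FDR = 0.177) for Dst and 0.59 (SE 0.23, FDR = 0.183) for Map1a, all greater in the libraries labelled Cre+, and -0.42 (SE 0.58, FDR = 0.719) for Map2. The other 4 members lay between -0.19 (Map4) and 0.38 (Map6). With edgeR 0 of 9 members were called in either direction, where 2.3% of 9006 genes were called greater and 2% smaller in Cre+. At an unadjusted p under 0.05 there were 4 (Map1a, Map1b, Dst and Macf1), where 1754 of the 9006 genes were in either direction. DESeq2 called 1, Macf1 (FDR = 0.0904), where it called 614 genes in all greater and 428 smaller. These differences depended on single libraries. Without Cre+ pull-down 1, Map1b was called at 1.301 (FDR = 0.0458) and Map2 at -1.16 (FDR = 0.0979). Without Cre+ pull-down 2, Dst was called at 1.25 (FDR = 0.0854) and Macf1 at 1.76 (FDR = 0.025). Calls over all genes rose too, from 207 greater and 180 smaller to 632 and 601 without Cre+ pull-down 1. They were 717 and 697 without Cre+ pull-down 2. An enrichment of these genes that differs between the labels was therefore neither shown nor shown to be absent.

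The pull-downs of both labels were also compared directly, in the same fit. Macf1 was 1.35 higher in Cre+ on the log2 scale (SE 0.37, FDR = 0.0297), Dst 1.03 (SE 0.29, FDR = 0.0327) and Map1b 1.02 (SE 0.27, FDR = 0.0287), and these 3 of 9 members were called, where 10.8% of 9006 genes were called higher and 7.12% lower. In the same comparison 4 of 5 markers of other sensory neurons were called higher (median 1.504). So were 2 of 3 endothelial markers (median 1.78) and 1 of 4 fibroblast markers (median 0.68). Called lower were 2 of 7 proprioceptor genes (median -0.86), 2 of 8 DRG neuron markers (median -0.435) and 1 of 5 glial markers (median 0.87). Without Cre+ pull-down 1 the endothelial median was 0.49, with 1 of 3 called. There 4 of 7 proprioceptor genes were called lower (median -1.95), where 904 genes in all were. DESeq2 called 0 of 3 endothelial markers. The part of these markers in the values of the members was not tested. Map1a differed by 0.50 (SE 0.16, FDR = 0.0525) and was below the fold limit, although every Cre+ pull-down lay above every Cre- pull-down. So did those of Map1b and Dst, which makes 3 of 9 members, against 13.5% of all genes, and 0 of 9 lay below throughout, against 15%. The 3 Cre+ values of Macf1 overlapped the Cre- values, since Cre+ pull-down 2 lay among them. In a fit of the 6 pull-downs alone, added after the values were seen, 1 member (Dst) was called. Map1b (0.986, FDR = 0.127) and Macf1 (1.327, FDR = 0.136) were not, at nearly the same fold changes. Map1b and Dst were under the fold limit with upper-quartile scaling (0.866 and 0.835) and with library size alone (0.815 and 0.785). Each lost its call without any of 4 single pull-downs, whereas Macf1 lost it without Cre- pull-down 2 (1.23, FDR = 0.114). Without Cre+ pull-down 1, Map2 (-1.09, FDR = 0.0265) and Map1s (-1.41, FDR = 0.0489) were called lower in the pull-downs labelled Cre+. In the inputs 0 of 9 members were called by edgeR in either direction, as were 0% of all genes, with log2 differences between -0.26 (Map1s) and 0.16 (Mapt). For the members there were 0 at an unadjusted p under 0.05 and 0 by DESeq2. The inputs of all 9 members overlapped between the labels, where 3.82% of genes lay above and 3.98% below throughout.

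As a share of all counts, Map1b stood far above the other members. It took 1.44%, 2.32% and 2.37% of the counts in the Cre+ inputs and 6.63%, 13.3% and 10.5% in the Cre+ pull-downs. In the libraries labelled Cre- it took 1.81%, 2.28% and 2.26% in the inputs and 3.78%, 7.73% and 5.5% in the pull-downs. It was the first or second gene by count in all 12 libraries, and the first in all pull-downs but Cre- pull-down 1. Group means were 2.04% ± 0.522 and 10.2% ± 3.37 (SD, n = 3) for Cre+ and 2.12% ± 0.266 and 5.67% ± 1.98 for Cre-, a ratio of means of 4.98 and 2.68. The other 8 members together took 0.522% to 0.741% of the Cre+ inputs, 1.53% to 1.69% of the Cre+ pull-downs, 0.6% to 0.722% of the Cre- inputs and 1.1% to 1.21% of the Cre- pull-downs. Dst and Map1a made up most of the rise, with mean shares in Cre+ of 0.2% and 0.226% in the inputs and 0.722% and 0.635% in the pull-downs.

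Shares do not depend on the scaling factors. Map4 had 0.168% ± 0.0133 of the Cre+ inputs and 0.105% ± 0.0298 of the Cre+ pull-downs, and no Cre+ pull-down reached the share of the lowest input. Map6 had 0.0336% ± 0.00159 of the Cre- inputs and 0.029% ± 0.00279 of the Cre- pull-downs, also without overlap, whereas its scaled fold change was near 0. With Map1b left out of the total, Map6 overlapped, with 0.0334% in Cre- pull-down 3 and 0.03296% in Cre- input 3. Map4 stayed apart for Cre+, with at most 0.155% in a pull-down and at least 0.1572% in an input. With 3 against 3 libraries an exact two-sided permutation test cannot go below p = 0.1, which 11 of the 18 tests of a member under 1 label reached (0.164 after Benjamini-Hochberg adjustment over the 18), so shares alone passed no threshold. As 95% Wilson intervals, counting error was at most 0.514% of the share for Map1b in any library and at most 27.4% of it for Map1s, the lowest member, with 52 counts in Cre+ pull-down 3. These intervals cover counting error only, since PCR copies of a molecule could not be told from separate molecules. The Cre- table lists more genes than the Cre+ table (14177 and 9112), but the genes of both held at least 97.7% of the counts of each Cre- library.

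**Figure D3:**
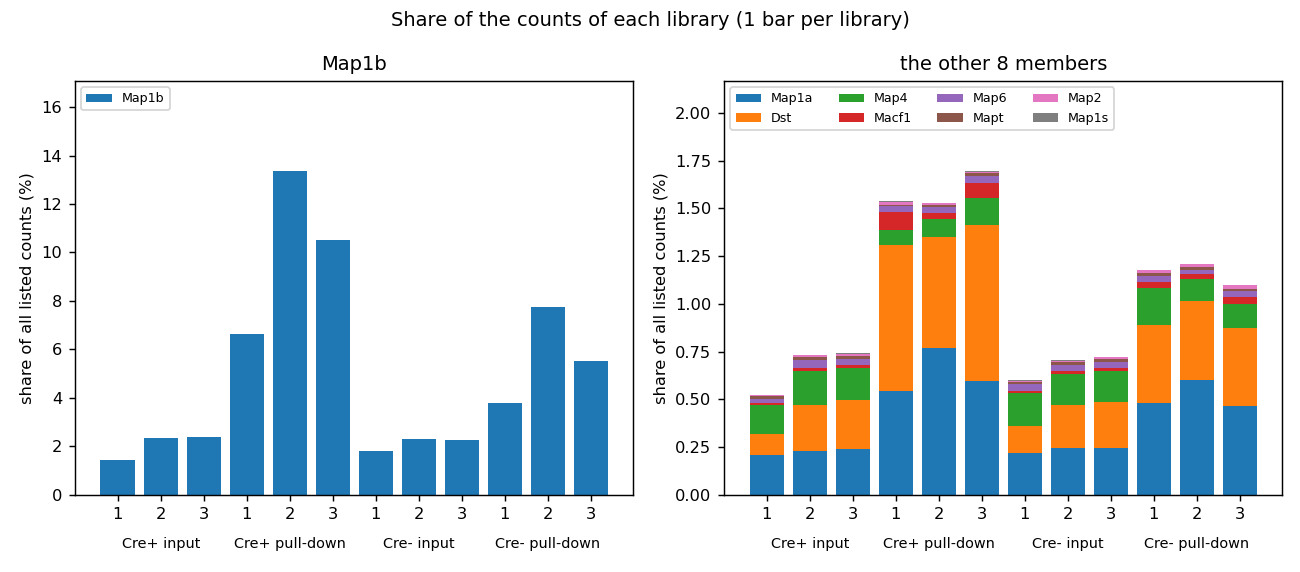
Share of all listed counts (in %) taken by Map1b (left) and by the other 8 members, stacked (right), with 1 bar per library and axes from 0. Map1b took 1.44% to 2.37% of the inputs and 3.78% to 13.3% of the pull-downs, and Dst and Map1a form most of the other bars.

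Levels of different genes were compared per kilobase of the longest annotated coding transcript. Map1b was first in all 4 groups, with 1480 ± 366 normalized counts per 1000000 counts and per kilobase in the Cre+ inputs, 9880 ± 2567 in the Cre+ pull-downs, 1651 ± 214 in the Cre- inputs and 5261 ± 2018 in the Cre- pull-downs (SD, n = 3). In both sets of inputs the order went on with Map4 (236 ± 15.2 and 254 ± 7.2), Map1a (164 ± 9.88 and 183 ± 13), Dst (73.6 ± 29.5 and 80.1 ± 21.3), Map6 (54.9 ± 14.3 and 62.8 ± 2.84), Mapt (27.4 ± 3.68 and 25.8 ± 1.01), Map2, Map1s and Macf1. Dst and Map6 overlapped in both, as did Map2 and Map1s, and Map1s and Macf1 overlapped in the Cre- inputs. In the pull-downs Map1a moved ahead of Map4, with 622 ± 70.1 in Cre+ and 473 ± 81.6 in Cre-, where Map4 had 201 ± 53.2 and 254 ± 68.1. Dst was the third in the Cre+ pull-downs (365 ± 82.2), above the highest value of Map4, and the fourth in the Cre- pull-downs (192 ± 9.77), below its lowest. Macf1 was last in both sets of inputs, with 4.83 ± 1.51 and 5.27 ± 0.859. In the Cre+ pull-downs it was sixth with 35.2 ± 18.4, and overlapped Mapt and Map2 there. Map1s was last in both sets of pull-downs.

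Pairs of members in the same library give ratios that no scaling can change. Map1a had more counts than Map4 in all 6 inputs, with ratios between 1.25 and 1.49. In the pull-downs the ratio was 6.67, 7.97 and 4.29 for Cre+ and 2.45, 5.32 and 3.78 for Cre-. The mean log2 ratio rose by 2.18 and 1.39, and all pull-downs lay above all inputs (exact two-sided permutation p = 0.1 each, the smallest possible, and 0.2 adjusted over 8 tests). Map1b to Map1a was 6.89 to 10 in the inputs of both labels. It was 12.2 to 17.7 in the Cre+ pull-downs, above all inputs (exact p = 0.1, adjusted 0.2), and 7.9 to 12.9 in the Cre- pull-downs, which overlapped (exact p = 0.4, adjusted 0.4). Map2 to Mapt was 0.314 to 0.532 in all inputs and 0.941, 1.17 and 1.64 in the Cre- pull-downs. In the Cre+ pull-downs it was 2.92, 0.432 and 0.429, so that Cre+ pull-down 1 alone was outside the range of the inputs. Dst to Macf1 was 12.8 to 16.4 in the inputs and 8.21 to 18.1 in the pull-downs, and overlapped under both labels (exact p = 0.4, adjusted 0.4).

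The members differ widely in transcript length, and in these libraries pull-down enrichment varied with length over all genes. For Cre+, the median log2 fold change was -0.83 for transcripts up to 2 kb, -0.16 for 2 to 4 kb, 0.33 for 4 to 6 kb, 0.82 for 6 to 10 kb and 1.48 above 10 kb, and 45.8% of the 295 genes above 10 kb were called higher. For Cre- the medians were -0.37, -0.08, 0.09, 0.33 and 0.70, and 31.5% of 295 genes above 10 kb were called higher. Map1a and Map1b (11.8 kb each), Dst (23.3 kb) and Macf1 (23.5 kb) were all above 10 kb, and Map2 (6.26 kb) and Map4 (6.09 kb) were between 6 and 10 kb. Against the median of its own length class, Map1b was 1.26 higher for Cre+ and 0.98 higher for Cre-, at the percentiles 93.6 and 94.2 of the class. Macf1 was at 94.9 and 90.5, Dst at 86.4 and 82.4 and Map1a at 73.2 and 87.5. Map2 was at the percentile 95.9 for Cre- and 66.1 for Cre+. Map4, of nearly the same length, was at 26.1 and 7.08, with a fold change 1.05 below its class for Cre+. Map1s (3.31 kb), Map6 (4.92 kb) and Mapt (5.25 kb) lay between the percentiles 34.8 and 58.4. The difference between both labels also varied with length, with a median of 0.73 above 10 kb, where Macf1 was at the percentile 78, Map1b at 67, Dst at 65.7 and Map1a at 41.3. The part of length in the calls of the members was not tested.

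**Figure D4:**
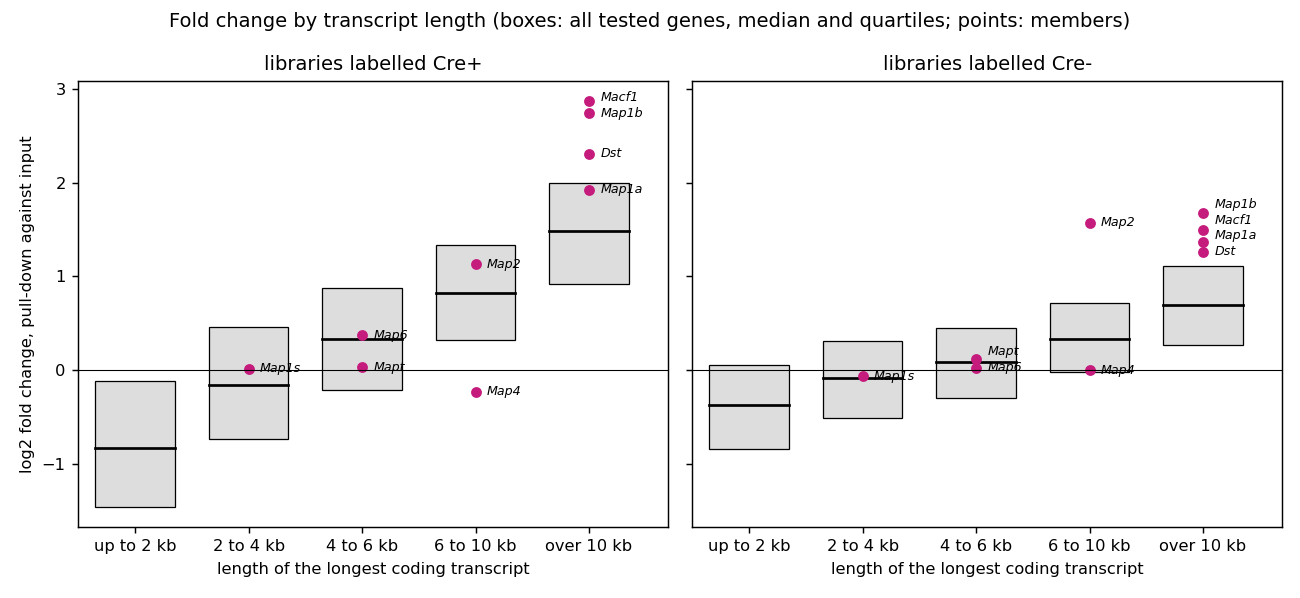
Log2 fold change of pull-down against input by length of the longest coding transcript, for Cre+ (left) and Cre- (right). Boxes give the median and quartiles over all tested genes of a length class, and points are the members, with names moved apart where they would overlap. Boxes go up with length under both labels, from medians of -0.83 and -0.37 to 1.48 and 0.70, and Map1b, Macf1 and Dst lie above the box of the longest class.

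Other genes of the microtubule system were counted in lists. Of all genes, 4.72% were called higher and 2.19% lower for Cre+, and 6.01% and 5.83% for Cre-. In a list of 12 or 13, 1 call is near these shares. The share called higher rose with transcript length, to 14.8% (Cre+) and 11.9% (Cre-) at 6 to 10 kb. Above 10 kb it was 45.8% and 31.5%. The lists were not compared by length, and the part of length in their calls was not tested. Of the plus-end tracking genes, whose products sit on growing microtubule ends, 6 of 16 tested were called higher in the pull-down for Cre+, with a list median of 0.87, and 2 of 17 for Cre-, with a median of 0.67. Apc, a tumor suppressor that also binds microtubule ends, had 2.20 (SE 0.29, FDR = 0.0229) for Cre+ and 1.23 (SE 0.15, FDR = 0.000278) for Cre-. The microtubule polymerase Ckap5 had 2.25 (FDR = 0.0304) for Cre+, and the neuron navigators Nav1 and Nav2 had 1.88 (FDR = 0.034) and 2.54 (FDR = 0.0401). The other call for Cre- was Ckap5, at 1.16 (FDR = 0.00868), named after its value was seen. Without Cre+ input 3, 0 of 16 were called for Cre+ by edgeR, with 8 higher at an unadjusted p under 0.05. Without Cre+ pull-down 1, 8 of 16 were called higher, where 803 genes in all were, instead of 422. Among plakins, which are related to the spectraplakins, 1 of 4 was tested. That gene, Plec (plectin), was called higher under both labels, with 2.72 (SE 0.38, FDR = 0.025) and 1.17 (SE 0.21, FDR = 0.00311), and its difference between labels was called too (1.59, SE 0.45, FDR = 0.0901), but both of these calls on Cre+ libraries were lost without Cre+ input 3, with fold changes of 2.96 and 1.81 there, and that of the difference also with upper-quartile scaling (1.39) and with library size alone (1.34). Without Cre+ input 3 only 4 genes in all were called for Cre+. With library size alone, the Cre- calls were lost as well, with 0 of 17 plus-end tracking genes called by edgeR (7 higher and 3 lower at an unadjusted p under 0.05) and Plec at 0.92.

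Calls were fewer in the other lists. Of further MAPs, 1 of 13 was called higher for Cre+ (Mtcl1, a crosslinker, 1.42, FDR = 0.0371) and 1 lower (Tppp3, a tubulin polymerization promoting protein, -1.40, FDR = 0.0915). For Cre- 1 of 12 was called, Tppp3 again, at -1.09 (FDR = 0.0014). Among genes of minus-end binding and severing proteins, 1 of 8 was called for Cre+ (Camsap2, which binds minus ends, 1.06, FDR = 0.0654), and for Cre- 0 of 9, with 4 higher at an unadjusted p under 0.05 and 0 by DESeq2. Of tubulin-modifying enzymes 0 of 11 were called by edgeR for Cre+, with 4 higher at an unadjusted p under 0.05 and 0 by DESeq2, and 1 of 12 for Cre- (Agbl5, a deglutamylase, -1.05, FDR = 0.0337). Of kinases that phosphorylate MAPs, 0 of 12 were called for Cre+ by edgeR, with 1 higher and 1 lower at an unadjusted p under 0.05, whereas DESeq2 called 2 higher and 1 lower. For Cre- 1 of 12 was called, Mark1, which phosphorylates proteins of the tau family, at 1.14 (FDR = 0.0212). The Cre+ calls of Mtcl1 (1.52), Tppp3 (-1.65) and Camsap2 (1.13) were lost without Cre+ input 3 at the fold changes given, which were no smaller, that of Camsap2 also with upper-quartile scaling and library size alone, and those of Mtcl1 for Cre+ and Mark1 for Cre- also with library size alone.

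**Figure D5:**
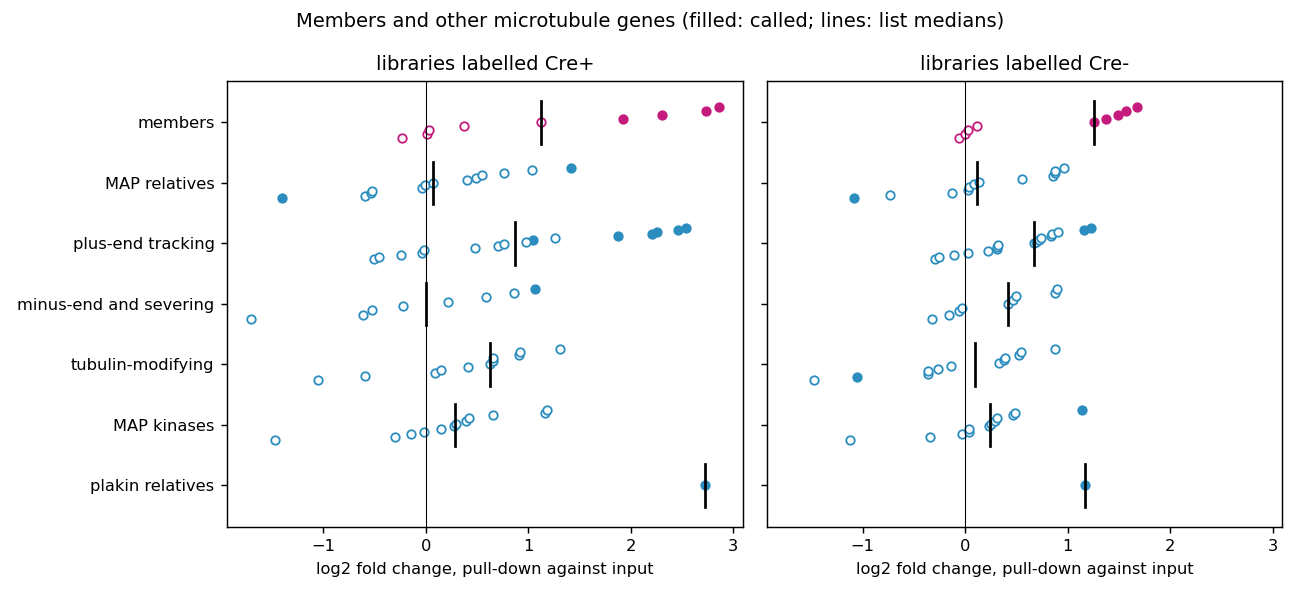
Log2 fold change of pull-down against input for the members and for 6 lists of other microtubule genes, for Cre+ (left) and Cre- (right). Each point is a gene, filled where it was called, and vertical lines are list medians. For Cre+ the members had 4 calls and the plus-end tracking genes 6, whereas the tubulin-modifying enzymes and the MAP kinases had 0 by edgeR.

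Across the 12 libraries, the members differed in how far they followed Map1b. On log2 normalized counts, Pearson's r with Map1b was 0.979 for Map1a, 0.938 for Dst and 0.873 for Macf1, 0.612 for Map2 and 0.569 for Map6, 0.132 for Mapt, -0.348 for Map1s and -0.468 for Map4. Of 8830 genes tested under both labels, the 5 with the highest r were Hmbox1 (0.987), Hivep1 (0.982), Srgap3 (0.982), Myo5a (0.981) and Ccdc88a (0.979). These values describe 12 libraries that fall into pull-downs and inputs, and the points share fraction, depth and scaling.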

How the data were processed

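Ribosome pull-downs and inputs of cultured DRG neurons were sequenced in 12 libraries, 3 per group, grouped by the genotype and RNA fraction in their labels. The columns of the Cre+ table got their group only from the sample descriptions that name this table, since the column names also resemble titles of Cre- samples. They could not be matched to single samples, so their numbers only tell libraries apart. The labels do not say that samples of 1 group came from separate litters or days, and p-values measure the spread between these samples. The authors aligned reads to mm10 with STAR and deposited 1 table per genotype with the count of uniquely mapped fragments per gene (HTSeq, refFlat), not normalized, and the mean FPKM over the 6 libraries of a table, which the authors computed and which served here as a filter only (above 1). The labels also name CASAVA 1.8.2 and edgeR. Not used were 18 other per-sample columns (their normalized values and ratios) and the columns of the authors' own comparison, which hold fold changes, p-values and FDR.

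Tests used edgeR 4.0.16 in R 4.3.3 (TMM scaling, glmQLFit with robust spread, glmQLFTest) with Benjamini-Hochberg adjustment over all genes tested, on the 6 libraries of a genotype label or on all 12. Calls needed both an FDR under 0.1 and at least 2-fold, as in the study's methods. The standard error is the log2 fold change divided by the square root of F. Normalized counts (per 1000000 counts) were scaled by TMM within 1 label and are not on a common scale between labels. In simulated data, 46% and 72% of genes changed by 2 and 3 on the log2 scale were called for Cre+. These shares were 97% and 100% for Cre- and 32% and 80% for the difference. Genes left unchanged gave 18 calls for Cre+, 24 for Cre- and 8 for the difference. Each gene was drawn independently, so a library that stands apart, as Cre+ pull-down 1 does, was not simulated. Coordinates are from RefSeq and lengths, overlaps and coding sequences from GENCODE M21, both on GRCm38, and 99.5% of genes had a length. Older symbols shared by several genes were left unmatched. Proteins were not analysed here, and repeats were searched in coding sequence instead, and not all matched stretches are reported here.

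The alternatives were DESeq2 1.42.0, at least 10 counts in 3 libraries, no filter, upper-quartile scaling, library size alone, an FDR of 0.05, no fold limit, all 12 libraries in 1 fit, a replicate block, other denominators of shares and each library left out. Fits without robust spread and on 6 libraries, and list counts without Cre+ pull-down 1 or Cre+ input 3, were added after the values were seen. Members and lists were chosen with earlier results of these data known. Named genes are the members, Runx3, at most 4 per list with the smallest FDR, and the 5 most like Map1b. Figures were drawn with matplotlib 3.10.9.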

Additional observations from a re-analysis of the deposited data

How the results depend on the processing

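The calls of Map1a, Map1b, Map2, Dst and Macf1 for Cre- held in all 16 alternatives, and no called member changed sign. Over 837 values of a member under an alternative, 759 kept direction and side of the threshold, 19 lost a call, 9 gained one and 50 changed sign, all of the last in members not called. Scaling moved the median of all genes for Cre+ from 0.076 to -0.115 (upper-quartile) and -0.361 (library size), for Cre- from -0.038 to -0.067 and -0.273, for the difference from 0.128 to -0.048 and -0.108, and for the pull-downs from 0.138 to -0.034 and -0.092. With upper-quartile scaling and library size alone, Map1s became -0.269 and -0.494 and Mapt -0.137 and -0.388 for Cre+, Map1s became -0.153 and -0.196 in the difference, and Mapt -0.039 and -0.106 between pull-downs. With library size Map6 became -0.076 for Cre+, and Map6 and Mapt became -0.209 and -0.114 for Cre-. Map6 was -0.003 for Cre- with upper-quartile scaling and Map4 was 0.016 with DESeq2. The members called higher were 1 in the difference with DESeq2, and 1 between pull-downs with upper-quartile scaling, with library size and in the 6 pull-downs alone. The other 8 members took 1.233% of Cre- and 1.769% of Cre+ pull-downs when Map1b was left out of the total, and 1.262% and 1.855% with TMM-scaled totals. Apart from what scaling shifts by construction, the cause was not tested.

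With each library left out in turn, members called higher ranged from 1 to 4 for Cre+, from 0 to 2 in the difference (lower from 0 to 1) and from 1 to 3 between pull-downs (lower from 0 to 2). Between pull-downs Map1b lost its call without Cre+ pull-down 2 (0.82) or 3 (0.99) or Cre- pull-down 1 (0.76) or 3 (0.999). Dst lost it without Cre+ pull-down 1 (0.93) or 3 (0.94) or Cre- pull-down 1 (0.98) or 3 (1.03). Macf1 lost it without Cre- pull-down 2 (1.23). For Cre+, Map1s ranged from -1.215 to 0.479 and Mapt from -0.186 to 0.36. For Cre-, Map4 ranged from -0.226 to 0.125, Map1s from -0.316 to 0.381, Map6 from -0.039 to 0.08 and Mapt from -0.007 to 0.205. In the difference, Mapt ranged from -0.296 to 0.25, Map1s from -1.148 to 0.54 and Map4 from -0.438 to 0.034. Between pull-downs, Map1s ranged from -1.409 to 0.279 and Mapt from -0.136 to 0.41. Between inputs, Map1b ranged from -0.207 to 0.103, Map4 from -0.093 to 0.006, Map6 from -0.309 to 0.065, Dst from -0.273 to 0.245, Macf1 from -0.191 to 0.185, Map2 from -0.164 to 0.305 and Map1s from -0.512 to 0.177.

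Counts over all genes (higher and lower) moved by more than 1.5 times for Cre+ from 422 and 196 to 1103 and 568 with DESeq2, 249 higher with upper-quartile scaling, 192 and 699 with library size, 139 and 26 at FDR 0.05, 1254 and 955 in the fit of 12 libraries, and 4 to 803 and 0 to 540 with a library left out. For Cre- they moved from 693 and 672 to 429 and 1238 with library size, 1502 and 1284 with no fold limit, 270 and 173 in the fit of 12 libraries and up to 1060 lower with a library left out. The difference moved from 207 and 180 to 614 and 428 with DESeq2, 82 higher with upper-quartile scaling, 69 and 275 with library size, 35 and 61 at FDR 0.05 and 13 to 717 and 30 to 697 with a library left out. Between pull-downs, 970 and 641 moved to 628 higher with upper-quartile scaling, 551 and 996 with library size, 618 and 426 at FDR 0.05, 121 and 132 in the 6 pull-downs alone and 372 to 1402 and 323 to 1098 with a library left out. Map2 was called for Cre+ in the fit of 12 libraries (FDR = 0.0685, edgeR).

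Each input was part of a lysate before its pull-down, so the design pairs the fractions. Which Cre- input belongs to which pull-down is given only by the numbers in the labels. In Cre-, same-numbered pull-downs and inputs had deviations with r of 0.0747, 0.0336 and 0.141, and other pairs had -0.123 to 0.0296. Each library correlated best with its own number, although these r are low. The main Cre- tests were fitted without pairs, and the replicate block takes equal numbers as pairs. With a replicate block 704 genes were higher and 792 lower, 5 members were called, Map1b had 1.605 (FDR = 0.00032, edgeR) and Map1s 0.007. No paired analysis was possible because columns of Cre+ libraries were matched to a group only and so carry no replicate number from the labels, which holds for Cre+ and for the difference. Counting error was largest for Map1s, at up to 27.4% of its share, and its Cre+ pull-downs ran from 6 to 47.9 normalized counts.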
